A study of Mus musculus with 58 samples.

Results

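Liver tumors of mice that had received adeno-associated virus (AAV) as newborns were divided by their level of Rian, a long non-coding RNA, and the division separated 14 tumors with high Rian from 15 with low Rian. The tumors were chosen by this measured value alone: a tumor counted as high when the deposited log2 value of its Rian transcript cluster was above 9.0, and as low otherwise. By their titles the 29 tumors came from 28 animals. They were measured together with 29 normal livers, so that the series held 58 arrays. The study asked whether AAV insertion into the genome plays a part in hepatocellular carcinoma. All animals shared a mixed FVB/NJ, C57BL/6 and 129/Sv background, AAV injection after birth and sampling as adults. The labels give no uninjected animal, no vector, promoter or dose for any tumor, and no gene for the marks +/- and -/- that some titles carry. The title of the normal liver of tumor 4, a high-Rian tumor, also holds the letters GFP, which the labels do not explain. Counted over tumor titles, the +/- mark stood on 5 high-Rian and 0 low-Rian tumors, the -/- mark on 2 and 3, and 7 and 12 had no mark. The titles of an animal did not always carry the same mark: the normal liver of tumor 19 was marked -/- and the tumor was not, and of tumors 22 and 26, from 1 animal, only tumor 22 was marked -/-. Counted over animals, with a mark on any title taken as the animal's, 5 high-Rian animals were +/-, 3 were -/- and 6 had none, against 0, 3 and 11 low-Rian animals. The gender label was male for 11 and female for 3 high-Rian tumors. Among the low-Rian tumors it was male for 6, female for 8 and missing for 1. Counted once per animal, the labelled sexes divided 11 to 3 and 5 to 8 (Fisher's exact test, two-sided, p = 0.0542). By Xist, the RNA of the inactive X chromosome, the 28 animals divided 10 to 4 and 6 to 8 (the same test, p = 0.252). Titles of several animals share a leading number that the labels do not explain. The largest such set held 5 tumors of 4 animals, all low in Rian, and 4 of the 5 leading numbers with more than 1 animal had tumors in both Rian groups. The matching normal liver of the same animal had been measured for 10 high-Rian and 8 low-Rian tumors.

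Rian lies in the imprinted Dlk1 to Dio3 locus, where the copy from the father expresses protein-coding genes such as Dlk1 and Dio3 and the copy from the mother expresses non-coding RNAs such as Meg3, Rian and Mirg. The maternal RNAs carry many C/D box small nucleolar RNAs (snoRNAs), which guide methylation of other RNAs, and many microRNAs (miRNAs), which lower the output of target messengers. The locus is active in the fetus and mostly silent in adult liver, and it is known as a place where AAV vectors insert in mouse liver tumors. Vector insertion was not examined here.

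All 43 measured miRNA genes of the locus were found in the RefSeq table of build GRCm38.p6, with 80 mature arms. The arms of the 5 miRNA genes that differed most between the tumor groups are shown first, in lower case with the seed, bases 2 to 8, in capitals. Each array cluster gave 1 value per miRNA gene, so the arms of a gene cannot be told apart. In that build miR-380-3p lies at chr12:109711842-109711863 on the plus strand.
miR-380-5p: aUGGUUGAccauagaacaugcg
miR-380-3p: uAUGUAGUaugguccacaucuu
miR-323-5p: aGGUGGUCcguggcgcguucgc
miR-323-3p: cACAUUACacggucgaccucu
miR-453: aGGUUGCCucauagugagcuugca
miR-300-5p: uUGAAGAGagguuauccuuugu
miR-300-3p: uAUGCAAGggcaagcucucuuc
miR-377-5p: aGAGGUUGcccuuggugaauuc
miR-377-3p: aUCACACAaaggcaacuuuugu

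Among the 80 arms, 8 seeds were shared by arms of different genes. Among them, miR-379-5p shares its seed with miR-1193-5p and miR-376b-5p with miR-376c-5p, and all 4 genes were higher by over 1 (log2) in high-Rian tumors. These 4 arms follow as examples, together with both arms of let-7c-2, whose gene lies outside the locus and was the only gene outside it to pass the test between the tumor groups. The let-7c-5p arm of that gene lies at chr15:85706616-85706637 on the plus strand. None of the 80 arms has the let-7 seed (0 arms).
miR-379-5p: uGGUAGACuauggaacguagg
miR-1193-5p: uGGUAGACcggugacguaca
miR-376b-5p: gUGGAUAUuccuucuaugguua
miR-376c-5p: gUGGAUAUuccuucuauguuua
let-7c-5p: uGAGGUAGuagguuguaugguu
let-7c-2-3p: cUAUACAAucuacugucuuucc

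Several libraries stood apart. Tumor 9, a low-Rian tumor, was below every other tumor in all 10 hepatocyte markers, with a mean of 7.74 (log2) against at least 12.16 in the other 28 tumors. Albumin, the main plasma protein made by hepatocytes, was 10.47 in tumor 9 and between 13.29 and 13.83 in the other tumors. Tumor 9 was also above every other tumor in all 9 B and plasma cell markers (mean 11.71, next highest tumor 9.26) and in 14 of 17 T and natural killer cell markers (mean 9.28, next highest 7.56). In the remaining 28 tumors hepatocyte markers were at levels near those of normal liver, whose means ran from 12.26 to 12.91. Tumor 20, also low in Rian, had the highest neutrophil markers of the tumors, with a mean of 10.37 against at most 7.94 in the others, and the highest normal liver reached 10.50. Xist went against the gender label in 3 high-Rian tumors (tumors 14, 15 and 28), 1 low-Rian tumor (tumor 3) and 3 normal livers. Tumors 9, 20 and 3 belonged to low-Rian pairs, and many counts of genes in lists below changed when 1 of these pairs was left out. Array medians lay between 6.72 and 7.15 over all 58 arrays and averaged 6.89 ± 0.07 (SD, n = 14) in high-Rian and 6.93 ± 0.10 (SD, n = 15) in low-Rian tumors (permutation test, two-sided, p = 0.219).

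The levels of Rian are described without a test, since they chose the groups. Rian averaged 11.10 ± 1.15 (SD, n = 14) in high-Rian tumors, with a lowest value of 9.10, a median of 11.57 and a highest value of 12.20. In low-Rian tumors it averaged 6.98 ± 0.63 (SD, n = 15), from 6.18 through a median of 6.81 to 8.20. The 29 normal livers averaged 7.03 ± 0.92 (SD), from 5.88 to 8.83 with a median of 6.84. All 14 high-Rian tumors were thus above the highest normal liver and 0 of the 15 low-Rian tumors were. The tumors nearest to the division were tumors 11 and 16 just above it, at 9.10 and 9.11, and tumors 12 and 18 just below it, at 8.20 and 8.02. No tumor lay between 8.20 and 9.10.

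Set beside its own normal liver, Rian was higher in 10 of 10 high-Rian tumors, by a mean of 4.14 ± 1.69 (SD, n = 10, log2). The smallest of these differences was 0.74, in tumor 11, and the largest was 5.98, in tumor 15. In low-Rian tumors the mean difference was 0.65 ± 0.87 (SD, n = 8), and 6 of 8 tumors were above their own normal liver. Tumor 12 had the largest of these differences, 2.33, and tumor 3 the lowest, -0.42. The low-Rian group therefore held tumors at the level of their own normal liver as well as tumors above it.

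**Figure D1:**
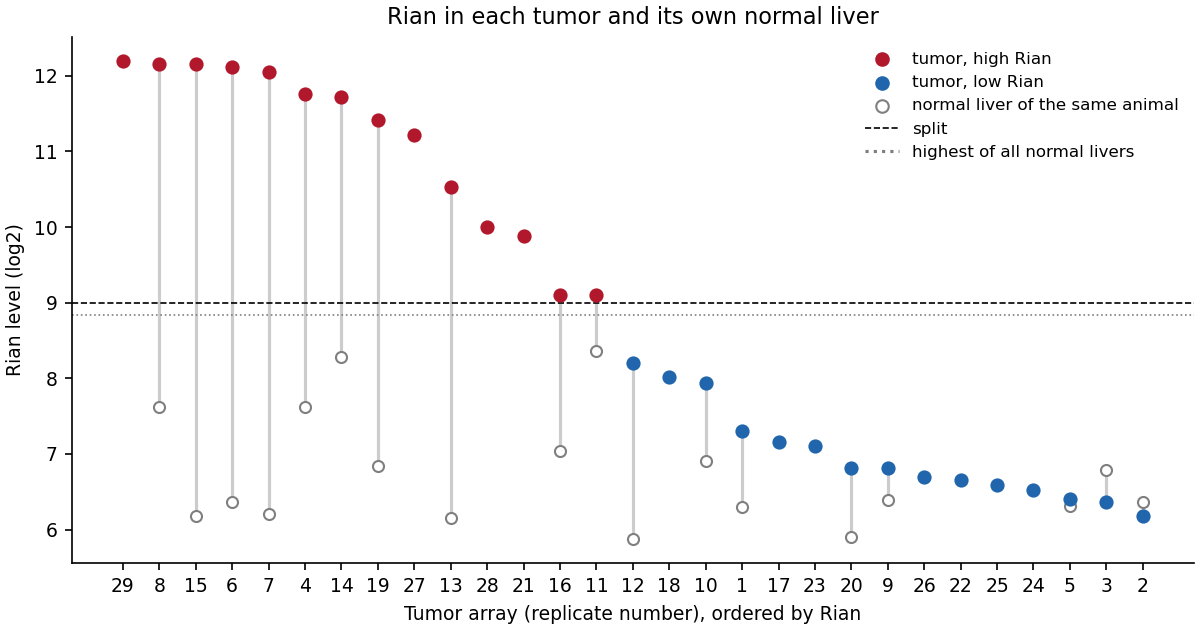
Rian level (log2) in each of the 29 tumor arrays, ordered by Rian, with the normal liver of the same animal as an open circle joined by a line where it was measured (18 pairs). The dashed line is the division at 9.0 and the dotted line the highest normal liver, 8.83. The 14 high-Rian tumors spread from 9.10 to 12.20 and the 15 low-Rian tumors lie at or below 8.20.

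The rest of the locus is likewise described without a test, since it was left out of the tested genes. Clusters of the locus are counted below where they have 1 gene symbol. The 9 of these that precede Rian along the locus, from Dlk1 to Mir3070b, differed by -0.29 to 0.02 (log2) between the group means. Rtl1, another gene of the locus, had only clusters that it shares with other genes. The cluster of Rtl1 and Mir3071 differed by 0.88 ± 0.57 (SE), and the other Rtl1 clusters by -0.11 to 0.11. Meg3, the maternal long RNA upstream of Rian, averaged 6.98 ± 0.30 (SD, n = 14) in high-Rian and 6.96 ± 0.34 (SD, n = 15) in low-Rian tumors. These values are of a single cluster, and the strand that it reads is not given. Clusters that Meg3 shares with Mir770, and with Mir1906-1 and Mir1906-2, differed by -0.28 and -0.11. Dlk1, which encodes a transmembrane protein related to Notch ligands, averaged 6.88 ± 0.14 and 7.17 ± 0.44, and its highest value, 8.65, was in a low-Rian tumor. The groups overlapped in both genes.

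From Rian to the last miRNA gene, Mir409, the picture differed. The 47 clusters of 42 genes in this stretch were higher by a median of 1.42 in high-Rian tumors, with a range of -0.03 to 4.22, and 32 of them by over 1. In 40 of the 47 clusters at least 5 high-Rian tumors were above every normal liver, and in 0 clusters were 5 low-Rian tumors. The 3 clusters after the last miRNA gene, 3110009F21Rik, Dio3os and Dio3, differed by -0.21 to -0.04. Dio3, which encodes the enzyme that inactivates thyroid hormone, averaged 5.32 ± 0.20 (SD, n = 14) and 5.37 ± 0.31 (SD, n = 15). Dio3os, its antisense RNA, averaged 6.60 ± 0.24 and 6.71 ± 0.20, and 3110009F21Rik averaged 6.91 ± 0.16 and 7.13 ± 0.25. The groups overlapped in all 3.

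The snoRNAs showed the largest differences. The 7 snoRNA clusters of 6 genes were higher by 0.65 to 4.22, with a median of 2.77. AF357425 ranged from 6.82 through a median of 10.76 to 11.98 in high-Rian tumors and from 5.05 through 5.87 to 7.31 in low-Rian tumors. The groups overlapped only at the lower end of the high-Rian tumors. AF357426 had medians of 8.10 and 3.97 in the groups, and AF357355 of 10.42 and 6.85. These snoRNAs belong to families encoded in introns of the maternal RNAs.

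Among the miRNA genes, 40 clusters of 36 genes from Mir341 to Mir409 were higher by a median of 1.27, from -0.03 to 3.67. Mir380 ranged from 4.73 through a median of 8.61 to 10.20 in high-Rian tumors and from 3.91 to 5.77 in low-Rian tumors, with a mean of 4.41 ± 0.56 (SD, n = 15). Mir323 was higher by 3.28, Mir453 by 3.10, Mir300 by 2.87 and Mir377 by 2.83. Of the seed pairs printed above, Mir379 was higher by 1.67 and Mir1193 by 1.86, and Mir376b by 2.34 and Mir376c by 1.73. Some genes had 2 clusters that disagreed: the clusters of Mir380 differed by 3.67 and 0.16, those of Mir376a by 1.87 and 0.11, and those of Mir409 by 1.42 and 0.08. The files do not say which strand each cluster reads.

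Against their own normal liver the same stretch rose by a median of 1.52 over its 47 clusters in high-Rian tumors and lay at -0.02 in low-Rian tumors (means per cluster, n = 10 and 8 pairs). In 16 of the 47 clusters all 10 high-Rian pairs were up, and in 0 clusters all 8 low-Rian pairs. Mir323 was up in 10 of 10 high-Rian pairs, by 3.61 ± 1.78 (SD), and in 5 of 8 low-Rian pairs, by 0.00 ± 0.48. Meg3 changed by 0.04 ± 0.40 and -0.02 ± 0.45.

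Tumor by tumor, the extent of the rise followed the level of Rian within the high-Rian group. The 11 tumors with Rian of 10 or more had 22 to 42 of the 47 clusters above every normal liver. Tumors 11, 16 and 21, with Rian between 9.10 and 9.88, had only 4 to 6. Low-Rian tumors had 0 to 6. By this measure the 3 high-Rian tumors nearest to the division resembled low-Rian tumors, and the comparison between the groups was therefore also run with the division at 10.

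**Figure D2:**
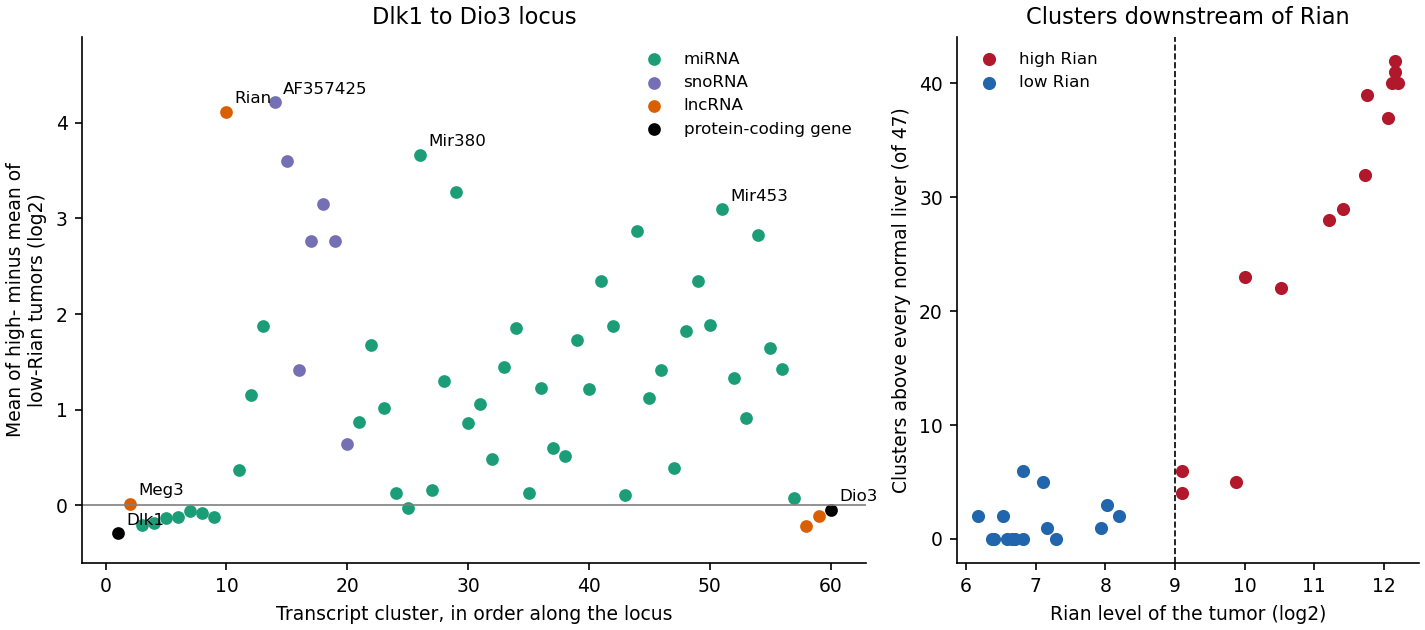
Left, difference of the group means (high- minus low-Rian tumors, log2) for the 60 clusters of the Dlk1 to Dio3 locus with 1 gene symbol. They stand in order along the locus and are coloured by kind of RNA. Right, for each of the 29 tumors, the number of the 47 clusters after Rian that exceed all 29 normal livers, against the Rian level of the tumor; 11 high-Rian tumors reach 22 to 42 and 3 stay at 4 to 6, in the range of the low-Rian tumors.

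Outside the locus 22125 genes were compared between the 14 high-Rian and 15 low-Rian tumors, and 1 of them (0.00452%) passed an adjusted p under 0.05 in limma's moderated test. That gene was Mirlet7c-2, which encodes a member of the let-7 family of miRNAs, known to restrain growth-promoting messengers in adult tissue. No gene was lower at that threshold (0 genes). At an unadjusted p under 0.05 there were 1142 genes (5.16%). The median half-width of a gene's 95% confidence interval was 0.21 (log2), and for 97.4% of genes the interval lay within 1 either way. After Mirlet7c-2 the lowest adjusted p was 0.833.

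Mirlet7c-2 was 3.83 at the lowest, 4.27 at the median and 4.89 at the highest in high-Rian tumors. In low-Rian tumors it was 3.57, 3.77 and 4.16, and in normal livers 3.64, 3.97 and 4.97. Of the 14 high-Rian tumors 10 were above the highest low-Rian tumor, but 0 were above the highest normal liver, and 20 of 29 normal livers lay within the range of the high-Rian tumors. The difference was 0.49 ± 0.083 (SE, log2; limma adjusted p = 0.0353), a fold of 1.40. Between the own normal livers of the 10 high-Rian and 8 low-Rian animals it was 0.23 ± 0.13 (SE, limma adjusted p = 0.996). Only 5.36% of all clusters had a lower mean, so the gene lay near the floor of the array. Against own normal liver Mirlet7c-2 was up in 5 of 10 high-Rian and in 3 of 8 low-Rian pairs.

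The call was lost in 13 of 17 other settings and on leaving out any of 22 single tumors, among them tumor 9 (adjusted p = 0.0751). With the labelled sex as a covariate the adjusted p was 0.0886, and with the division at 10 it was 0.605. With the leading title number as a random block it was 0.0452. The difference kept its direction in all 17 settings. Of the other 11 let-7 family genes measured, 0 passed the test. Mirlet7b differed by 0.20 (adjusted p = 0.833), and Mirlet7c-1, which also yields mature let-7c, by 0.13 (adjusted p = 0.834).

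The 5 lower genes of smallest p did not pass. Norad, a long non-coding RNA that binds Pumilio proteins and guards chromosome stability, was 9.21 ± 0.36 (SD, n = 14) in high-Rian and 9.74 ± 0.31 (SD, n = 15) in low-Rian tumors. Its difference of -0.53 ± 0.13 (SE) had an adjusted p of 0.833. Hsf3, a heat shock factor, differed by -0.19 at a mean level of 3.78 and 3.97, near the floor. Snhg12, a host gene of snoRNAs, differed by -0.33. D830013O20Rik differed by -0.22, and Mir215, a miRNA gene, by -0.16. All 5 had an adjusted p of 0.833, and in each of them the groups overlapped.

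**Figure D3:**
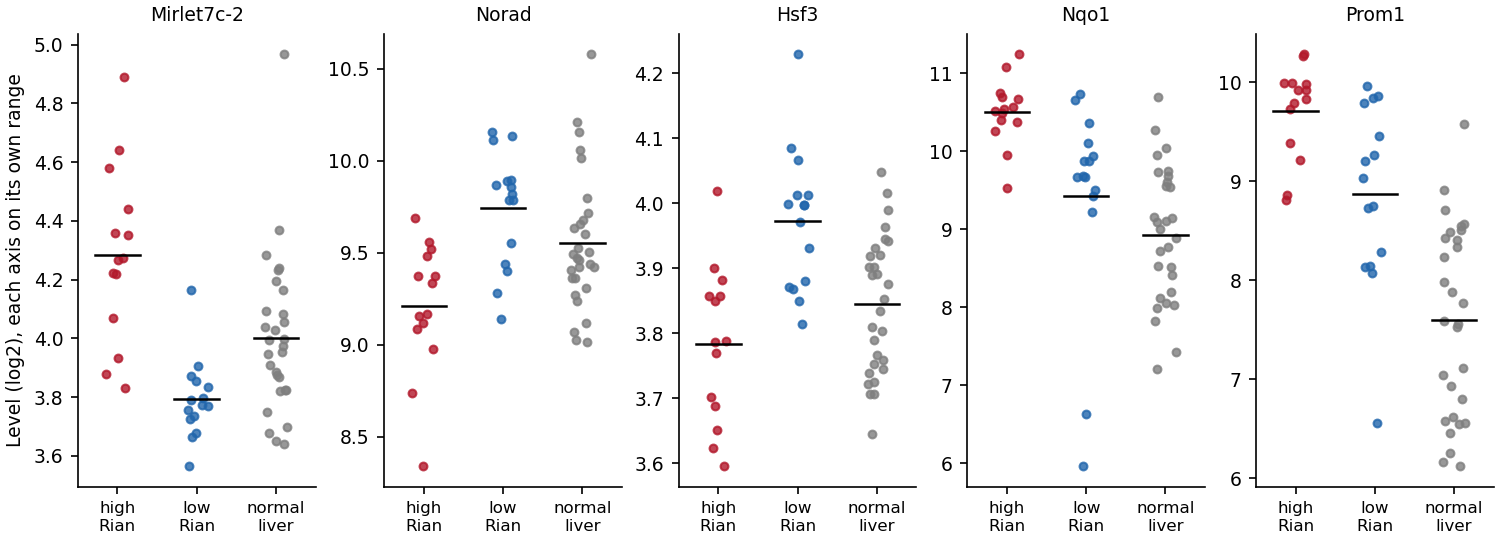
Level (log2) of 5 genes in each high-Rian tumor (14), low-Rian tumor (15) and normal liver (29), with the group mean as a bar; each axis has its own range. Mirlet7c-2 alone passed the test between the tumor groups, and its high-Rian values lie within the span of the normal livers; the lowest low-Rian value of Nqo1 is 5.96, against 9.53 for the lowest high-Rian tumor.

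Gene lists named for liver functions, cancer pathways and cell types gave no call between the tumor groups in any of 38 lists. The shares at an unadjusted p under 0.05 are therefore set beside the 5.16% of all genes. Of the 22125 genes 489 were higher and 653 lower at that threshold with all tumors. These counts were 620 and 729 without tumor 9, and 370 and 435 without tumor 20. Targets of Nrf2, the regulator of the response to oxidants, were higher at that threshold in 7 of 23 genes and lower in 0. All 23 had a positive difference, with a median of 0.44 against -0.02 over all genes. The 7 were Nqo1, Gsr, Pgd, Taldo1, Gsta4, Cbr3 and Akr1b8. The mean level of the list had medians of 10.53 in high-Rian and 10.11 in low-Rian tumors. In their own normal livers these medians were 10.04 (n = 10) and 9.74 (n = 8), so the normal livers leaned the same way. Nqo1, a quinone reductase, was 9.53 at the lowest, 10.53 at the median and 11.24 at the highest in high-Rian tumors. In low-Rian tumors it was 5.96, 9.69 and 10.73, and its difference was 1.08 ± 0.36 (SE, adjusted p = 0.833). Between the own normal livers of the groups Nqo1 differed by 0.41 ± 0.33 (SE, limma adjusted p = 0.996). Without tumor 9 the count of Nrf2 targets was 6 of 23 and their median 0.31. The difference of Nqo1 between the tumor groups was then 0.84.

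Cell type markers gave the following. Macrophage markers were higher at the unadjusted threshold in 3 of 15 genes, the complement components C1qa, C1qb and C1qc, with differences of 0.41, 0.57 and 0.53 and a median of 0.41 over the list. Without tumor 9 they numbered 4 of 15, with a median of 0.38, when 620 of all 22125 genes were higher. Mean macrophage levels ran from 8.49 to 9.84 in high-Rian and from 8.12 to 10.08 in low-Rian tumors, so the groups overlapped. Whether more cells of a type or more RNA per cell lay behind such a value cannot be told apart in whole tissue. Stellate cell and fibroblast markers were higher in 2 of 19, Acta2 and Tagln. Between the own normal livers of the groups 4 of these 19 differed at an unadjusted p under 0.05, against 3% of all genes. Markers of T, B and bile duct cells, neutrophils and red cells had 0 genes at that threshold. Without tumor 20, 3 of 13 neutrophil markers were higher, with a median of 0.26 in place of 0.02. Of all 22125 genes 370 were higher in that fit. Without tumor 9, 1 of 9 B and plasma cell markers was higher.

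Liver function lists leaned toward higher values in high-Rian tumors in ways that changed without tumor 9. All 16 periportal genes were positive, with a median of 0.46, and the median was 0.15 without tumor 9. Plasma protein and coagulation genes had a median of 0.32 with tumor 9 and 0.02 without it. Cytochrome P450 genes of families 1 to 4, which oxidise drugs and steroids, had medians of 0.35 and 0.17. Hepatocyte markers had medians of 0.35 and 0.03. Each of these medians was thus smaller without tumor 9. Genes of DNA replication and mitosis had 34 of 38 positive differences with a median of 0.13, and 1 of them, the cyclin gene Ccne1, reached the unadjusted threshold at 0.25. Without tumor 9 the median was 0.20 and 3 of the 38 reached it. Acute phase genes had 0 of 22 at that threshold with a median of 0.28. Without tumor 20 it was 5 of 22, all higher, with a median of 0.44, when 370 of all 22125 genes were higher.

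Imprinted growth genes elsewhere in the genome gave 0 calls. Of 27 measured, 12 had a positive difference and the median was -0.02. Grb10, an adaptor that dampens insulin receptor signals, had the smallest p (difference 0.29, adjusted p = 0.833). Igf2, a fetal growth factor, ranged widely in high-Rian tumors, with a mean of 8.25 ± 1.45 (SD, n = 14) against 7.57 ± 0.57 (SD, n = 15), and its difference of 0.69 had an adjusted p of 0.833. Genes just outside the Dlk1 to Dio3 locus had a median of -0.02 over 16 members, and 0 of them passed. Begain had the smallest p of these and differed by -0.17. For all 16 the 95% confidence interval lay within 1 either way.

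Each group was then set beside its own normal livers. In the 10 high-Rian pairs 2695 of 22125 genes (12.2%) changed at an adjusted p under 0.05, of which 1760 rose (7.95%) and 935 fell (4.23%). In the 8 low-Rian pairs 632 genes (2.86%) changed, 305 up (1.38%) and 327 down (1.48%). Centring each array on its median moved these splits to 1794 up and 470 down, and to 99 up and 175 down. The low-Rian count rested on single pairs: it was 28 without tumor 3, 96 without tumor 2, 110 without tumor 10, 271 without tumor 12, 301 without tumor 5, 458 without tumor 9, 1061 without tumor 1 and 1591 without tumor 20. The median over genes of the SD of the paired change was 0.31 in high-Rian and 0.41 in low-Rian pairs, and 0.38 without tumor 9. The counts of the groups rest on different numbers of pairs, while the test used 1 shared estimate of the spread for both groups. Leaving out the low-Rian pair of tumor 9 also moved the high-Rian count, to 3371. Without tumor 3, at most 1 member of any of the 38 lists rose and at most 1 fell in low-Rian pairs. Without the pairs in which Xist went against the gender label, the counts were 1470 and 2.

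The difference itself was tested. No gene outside the locus had a paired change that differed between the groups at an adjusted p under 0.05 in limma's test (0 of 22125, 0%; 762 genes or 3.44% at an unadjusted p under 0.05). The genes called in both groups made up 78.0% of the low-Rian and 18.3% of the high-Rian list, and 0 of them changed in opposite directions. These shares were 91.5% and 12.4% without tumor 9, 71.1% and 34.5% without tumor 20, and 92.9% and 1.04% without tumor 3. Over all genes 70.3% had the same sign in both groups, and the mean changes correlated with r = 0.783 across genes, which are not independent replicates. The groups share no control liver. The normal livers gave 0 genes that differed between the 10 high-Rian and 8 low-Rian animals (limma; 664 genes or 3% at an unadjusted p under 0.05).

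**Figure D4:**
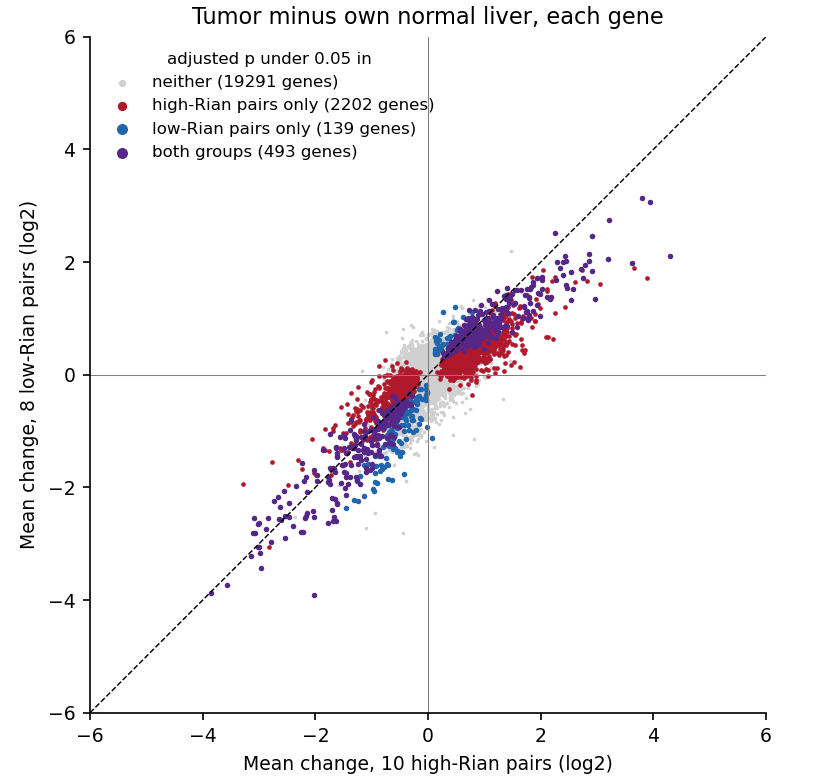
Mean change from own normal liver to tumor (log2) of each of 22125 genes in the 10 high-Rian pairs, horizontal, and in the 8 low-Rian pairs, vertical, coloured by the group in which the gene passed an adjusted p under 0.05. Genes called in both groups lie on the same side of 0 in both, and 2202 genes were called in high-Rian and 139 in low-Rian pairs alone.

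The 3 genes of smallest p for the difference of change did not pass. Mmp13, a collagenase, rose in 10 of 10 high-Rian pairs by 2.21 ± 0.19 (SE, limma adjusted p = 2.58e-06). In 8 low-Rian pairs it changed by 0.63 ± 0.22 (SE, adjusted p = 0.127, up in 7). The difference was 1.58, with a 95% confidence interval of 0.97 to 2.19 and an adjusted p of 0.472. Leaving out the pair of tumor 5 brought that p to 0.0315, the only call in 18 such fits. Over all tumors Mmp13 ran from 7.05 to 10.48 in the high-Rian and from 5.88 to 9.94 in the low-Rian group. E2f1, a transcription factor that drives entry into DNA replication, rose in 10 of 10 high-Rian pairs by 0.64 ± 0.08 (SE), changed by -0.01 ± 0.09 in low-Rian pairs and had an adjusted p of 0.472 for the difference. Snora68, an H/ACA snoRNA, fell by 0.78 ± 0.11 (SE) in high-Rian pairs and changed by -0.02 in low-Rian pairs (adjusted p of the difference 0.957). The own normal livers of the groups also differed, high minus low, by -0.21 in E2f1, 0.15 in Snora68 and 0.13 in Mmp13. None of these passed (limma adjusted p = 0.996 for each).

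All list counts below are to be read beside the shares of all genes. Of all genes 7.95% rose and 4.23% fell in high-Rian pairs, and 1.38% and 1.48% in low-Rian pairs. In low-Rian pairs 305 genes rose and 327 fell, and leaving out a pair moved these numbers. They were 258 and 200 without tumor 9, 1046 and 545 without tumor 20, and 8 and 20 without tumor 3. Genes of DNA replication and mitosis rose in 30 of 38 and fell in 1, the cyclin gene Ccnd1, in high-Rian pairs, with a median change of 0.77. In low-Rian pairs 6 of 38 rose, Cdk1, Mcm2, Mcm6, Rrm1, Ttk and Stmn1, with a median of 0.46. Cdk1, the kinase of mitotic entry, rose by 1.94 ± 0.26 (SE) in high-Rian pairs and by 1.24 ± 0.29 in low-Rian pairs. Mcm2, a subunit of the replicative helicase, rose by 1.02 ± 0.17 and 0.90 ± 0.19. Without the pair of tumor 9 the counts were 33 and 3, and the medians 0.77 and 0.28. Without tumor 3 they were 30 and 1. The difference of change was positive at an unadjusted p under 0.05 in 6 of the 38 genes with all pairs. It was so in 16 without tumor 9, 4 without tumor 3 and 3 without tumor 20. Of all 22125 genes 336 had such a positive difference with all pairs, and 3.44% differed in either direction. The positive ones numbered 244 without tumor 9, 373 without tumor 3 and 255 without tumor 20. No gene of the list passed after adjustment (0 genes). Plk1, a mitotic kinase, had the smallest p among them, with a difference of 0.84 (adjusted p = 0.957).

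Fetal liver and liver cancer genes rose in 13 of 25 members in high-Rian pairs, against 7.95% of all genes, with a median of 1.02. In low-Rian pairs 3 of 25 rose, against 1.38% of all genes, with a median of 0.61. The low-Rian count was 7 without tumor 20, 2 without tumor 9 and 0 without tumor 3. Of all genes 1046, 258 and 8 rose in these fits. Sox4, a transcription factor of progenitor cells, rose by 2.40 ± 0.30 (SE) and 1.77 ± 0.34. Robo1, a Slit receptor, rose by 1.87 ± 0.25 and 1.13 ± 0.28. Cd24a, a surface glycoprotein of progenitor cells, rose by 2.25 ± 0.47 and 2.52 ± 0.52. Prom1, a membrane protein of progenitor cells, rose by 2.26 ± 0.34 in high-Rian pairs (adjusted p = 0.000295) and changed by 1.10 ± 0.38 in low-Rian pairs (adjusted p = 0.128). Lgr5, a Wnt target that the list shares with the pericentral genes, fell in both, by 1.43 ± 0.27 and 1.39 ± 0.30.

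Pericentral genes, which are active around the central vein under Wnt signals, fell in both groups. In high-Rian pairs 20 of 25 fell and 1 rose, the amino acid transporter gene Slc1a4, with a median of -1.28. In low-Rian pairs 15 of 25 fell and 0 rose, with a median of -1.12. Nr1i3, the nuclear receptor CAR, fell by 3.08 ± 0.38 (SE) and 2.54 ± 0.42. Rnf43, a ligase that dampens Wnt receptors, fell by 1.74 ± 0.20 and 1.05 ± 0.22. Cyp1a2 fell by 2.26 ± 0.47 and 2.79 ± 0.53. Without the pair of tumor 9 the counts of falling genes were 20 and 11, and without that of tumor 3 they were 19 and 1. The medians without tumor 3 stayed at -1.28 and -1.10.

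Of 23 genes of bile acid synthesis and transport 6 fell in each group. The counts in high- and low-Rian pairs were 11 and 5 without tumor 9, 5 and 8 without tumor 20, and 4 and 1 without tumor 3. Slco1b2, an uptake carrier of hepatocytes, fell by 3.86 ± 0.59 (SE) and 3.86 ± 0.66, a difference of 0.01 with a 95% confidence interval of -1.83 to 1.84. Cyp7a1, the rate-limiting enzyme of bile acid synthesis, fell by 2.99 ± 0.58 and 2.64 ± 0.65. Of 47 cytochrome P450 genes 21 fell and 4 rose in high-Rian pairs, and 18 fell and 0 rose in low-Rian pairs. Without tumor 9 it was 25 and 6 in high-Rian and 11 and 2 in low-Rian pairs. In low-Rian pairs 22 fell without tumor 20 and 1 without tumor 3. The 4 that rose were Cyp1a1, Cyp2a5, Cyp2b10 and Cyp2g1. Cyp2c38 fell by 3.57 ± 0.57 and 3.72 ± 0.63. Lipid synthesis genes fell in 6 of 24 in each group, among them Thrsp, by 2.47 ± 0.40 and 2.53 ± 0.44. The low-Rian count was 4 without tumor 9, 9 without tumor 20 and 0 without tumor 3.

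Acute phase genes, which the liver secretes in inflammation, fell in 3 of 22 in high-Rian pairs and in 11 of 22 in low-Rian pairs. Saa4, a serum amyloid, fell by 2.03 ± 0.56 (SE) and 3.91 ± 0.63. Orm3, an orosomucoid, fell by 2.03 ± 0.42 and 2.53 ± 0.47. The difference of change was positive at an unadjusted p under 0.05 in 7 of the 22, and in 0 after adjustment. At the unadjusted threshold it was 4 without tumor 9, 12 without tumor 20 and 5 without tumor 3. Of all 22125 genes 336 had such a positive difference with all pairs. They numbered 244 without tumor 9, 255 without tumor 20 and 373 without tumor 3. Steap4, a metal reductase, had the smallest p of the list, with a change of 0.07 ± 0.25 against -1.13 ± 0.28. Its adjusted p for the difference was 0.957 (limma). The counts of falling genes were 7 and 7 without tumor 9, 4 and 14 without tumor 20, and 3 and 1 without tumor 3. Cholesterol synthesis genes fell in 1 of 16, Stard4, and in 5 of 16, which were Hmgcs1, Cyp51, Tm7sf2, Nsdhl and Stard4. These counts were 2 and 1 without tumor 9, 1 and 7 without tumor 20, and 1 and 0 without tumor 3.

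Genes of glycolysis rose in 8 of 14 in high-Rian pairs and in 3 of 14 in low-Rian pairs, which were Slc2a1, Pfkp and Pkm. The low-Rian count was 6 without tumor 20, 2 without tumor 9 and 1 without tumor 3. Pfkp, a phosphofructokinase, rose by 2.45 ± 0.30 (SE) and 2.01 ± 0.34. Slc2a1, a glucose transporter, rose by 1.87 ± 0.34 and 1.60 ± 0.38. Nrf2 targets rose in 8 of 23 and in 1 of 23, the transporter gene Abcc4, against 7.95% and 1.38% of all genes. Without tumor 9 the counts were 11 and 2, and the low-Rian median moved from -0.19 to 0.23. They were 8 and 2 without tumor 20, and 8 and 0 without tumor 3. Interferon response genes rose in 7 of 26 and 3 of 26, the latter 5 without tumor 20, 4 without tumor 9 and 0 without tumor 3, and Mx1, an antiviral GTPase, rose 2.30-fold and 1.71-fold. Among periportal genes Etnppl rose by 3.65 ± 0.50 in high-Rian pairs and changed by 1.89 ± 0.56 in low-Rian pairs (adjusted p = 0.0735).

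Of the imprinted growth genes outside the locus 5 of 27 rose in high-Rian pairs, Igf2, Grb10, Phlda2, Impact and Ppp1r9a, and 1 fell, Dcn. In low-Rian pairs 0 of 27 passed. Of all genes 7.95% rose and 4.23% fell in high-Rian pairs, and 1.38% and 1.48% in low-Rian pairs. Without tumor 20 the rising members were 6 and 1, when 2057 and 1046 of all genes rose. Phlda2, which limits placental growth, rose by 1.33 ± 0.23 (SE) and changed by 0.44 ± 0.26 (adjusted p = 0.421). The difference of 0.89 had an adjusted p of 0.957 and a 95% confidence interval of 0.16 to 1.61. Of the genes bordering the Dlk1 to Dio3 locus 1 of 16 rose in high-Rian pairs, the corepressor gene Rcor1, by 0.47 ± 0.12 (SE), and 2 without tumor 20. With 7.95% of all genes rising, 1 of 16 is near the background. In low-Rian pairs Rcor1 changed by 0.06 ± 0.13.

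Of 15 macrophage markers 5 fell and 2 rose, Cd14 and Gpnmb, in high-Rian pairs, with a median of -0.16. In low-Rian pairs 4 fell and 0 rose, with a median of -0.12, and 3 fell without tumor 9 and 1 without tumor 3. Without tumor 20, 4 fell and 1 rose. Clec4f, a lectin of resident liver macrophages, fell by 2.55 ± 0.33 (SE) and 2.06 ± 0.37, Marco, a scavenger receptor, by 1.56 ± 0.22 and 1.11 ± 0.25, and Vsig4, a complement receptor, by 2.65 ± 0.54 and 2.57 ± 0.61. Sinusoidal endothelial markers fell in 7 of 15 and in 1 of 15, Maf, which was 0 of 15 without tumor 9 or tumor 3. Vessel markers other than those rose in 5 of 9 and in 1 of 9, Emcn, which rose by 2.11 ± 0.31 and 1.38 ± 0.35. Without tumor 20 these counts were 5 and 4, and without tumor 3 they were 4 and 0. Hepatocyte markers had 0 of 10 called in either group, with medians of -0.13 and -0.78, and -0.19 in low-Rian pairs without tumor 9. Without tumor 9, 2 of the 10 rose and 1 fell in high-Rian pairs, and without tumor 20, 1 fell in low-Rian pairs.

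**Figure D5:**
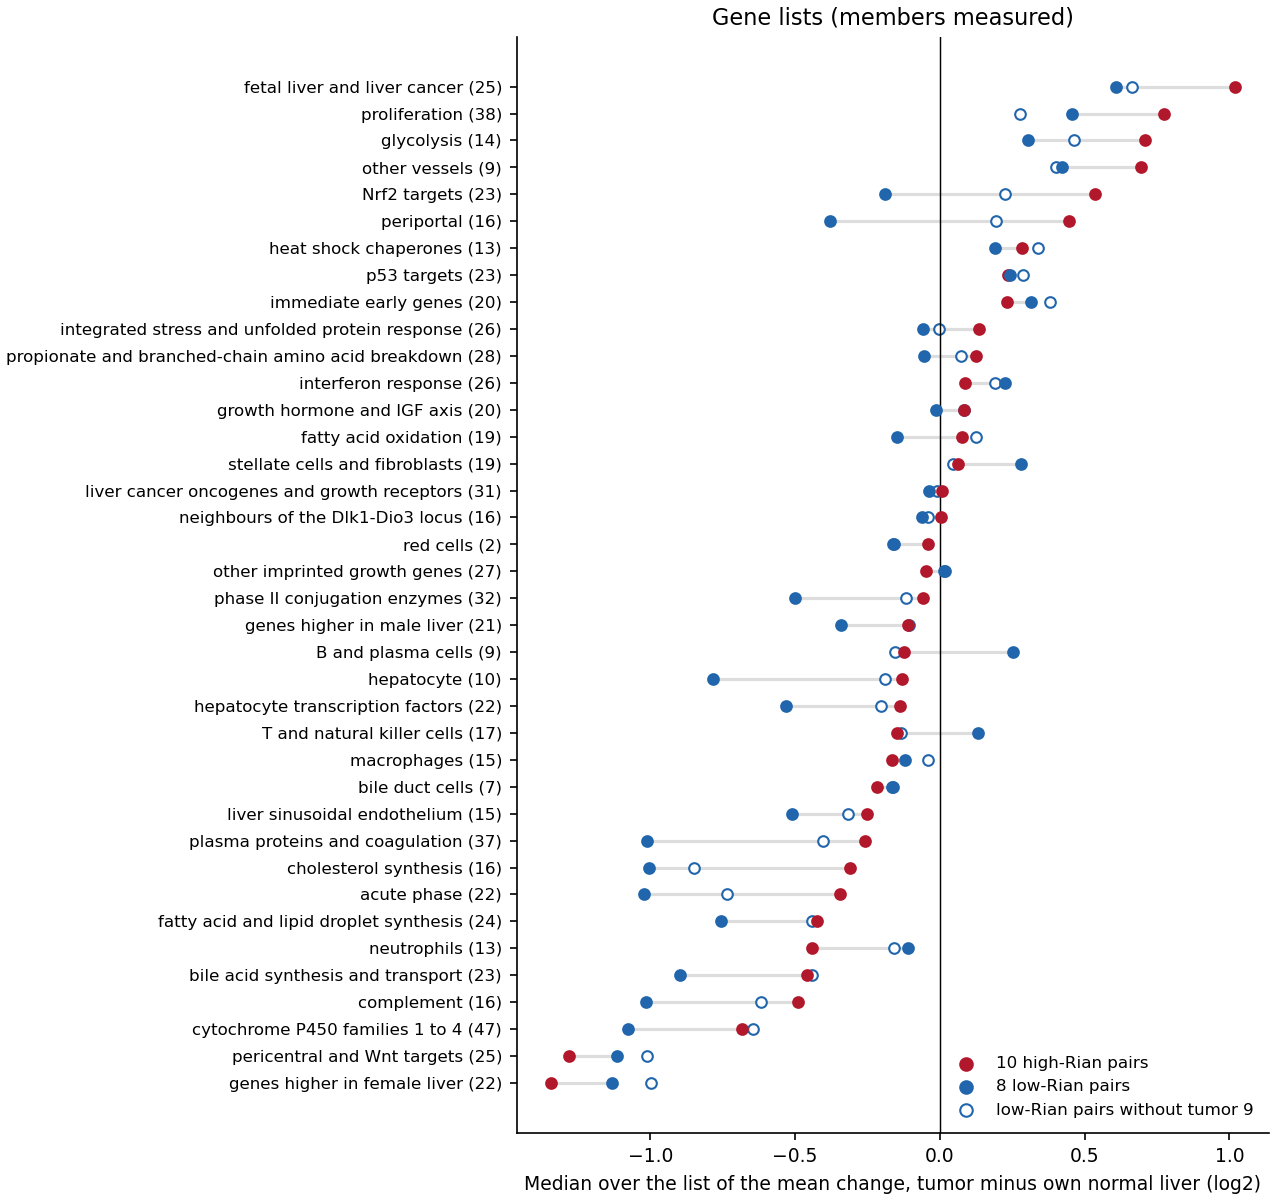
For each of 38 gene lists, the median over its measured members (number in brackets) of the mean change from own normal liver to tumor (log2), in 10 high-Rian pairs, 8 low-Rian pairs and the 7 low-Rian pairs left without tumor 9. Pericentral genes lie near -1.28 and -1.12, and for hepatocyte markers the low-Rian median moves from -0.78 to -0.19 without tumor 9.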

How the data were processed

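RNA of 29 tumors and 29 normal livers was measured on Affymetrix arrays. The deposited log2 values, 1 per transcript cluster and from 2.91 to 14.08, come from the Expression Console software of Affymetrix, as the submitters' processing notes state, and were used as given. No source used here gives its version, the normalization or the genome build. Scanner files were not used, and the number of arrays limits the precision.

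Of 41345 clusters, 23521 had 1 gene symbol in the platform table, 1814 several and 16010 none. The cluster of highest mean stood for its gene, giving 22180 genes. Of these, 55 from Dlk1 to Dio3 were left out and 22125 tested. Groups were compared in R 4.3.3 by limma 3.58.1 (lmFit, eBayes with a trend, Benjamini-Hochberg adjustment, threshold 0.05). Paired changes, tumor minus the normal liver of the animal that both titles name, were fitted for both groups together, so that they share 1 estimate of the spread. Fisher's exact test and a permutation test with 100000 resamples used scipy 1.17.1 under Python 3.11.15, and figures matplotlib 3.10.9. Tests were tried on simulated data. Gene lists are described by counts and medians. Named genes are the 10 largest passing differences each way, or where none passed the 5 (for the difference of change 3) of smallest p, and from each list up to 3 passing members of smallest p, or else the member of smallest p. Other members were named after their values were seen. The Rian groups and all lists were chosen with earlier results of these data known. By the titles, each tumor except tumors 22 and 26, which share 1 animal, is from a different animal. The titles of tumors 4 and 29, both labelled male, marked +/- and high in Rian, differ only in the order of their digits. They were read as different animals. Other normalizations, filters, divisions, covariates and left-out arrays were tried.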

Additional observations from a re-analysis of the deposited data

Results flagged for a closer look

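In the paired changes of named genes, 26 of 314 groups of 8 or 10 pairs examined (8.28%) held a pair whose gap to its neighbour exceeded Dixon's 95% limit. The genes were chosen from these data and all rest on the same 18 pairs, so the groups are not independent. The rate of about 1 group in 20 that the limit allows in independent samples is therefore no measure for this share. The values below are tumor minus own normal liver (log2). Each is named by its tumor, but either array of the pair can lie behind it.

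Tumor 9, of the low-Rian group, stood apart in 9 genes. Its changes were -5.0811 in Cyp2f2, a periportal P450, -6.3734 in Fetub, a plasma protein, -2.8211 in Gsta4, -4.5658 in the hepatocyte factor Onecut1, -4.4184 in Apoa1 and -3.735 in Hnf4a. It changed by 3.0015 in the T cell gene Cd4, by 3.0057 in the B cell gene Ighm and by 3.1229 in the B cell gene Cd22.

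Tumor 16, of the high-Rian group, stood apart in 9 genes as well. It changed by 0.3704 in Sox4, where the next lowest of the other high-Rian pairs was 1.8645. Its changes were -0.8736 in Rrm1, -0.9036 in Nr1i3, -0.9978 in Tnfrsf10b, -0.3458 in Cxcl10, -1.1339 in Oxct1, -2.5682 in Fgfr3 and -2.784 in Cftr, and 0.9098 in Onecut1. Its Rian level, 9.11, was among the 2 nearest above the division. Without the pair of tumor 16, 3947 genes were called in high-Rian pairs, the highest count on leaving out 1 pair. Of the genes named here Cftr is a bile duct marker. Mean bile duct marker levels reached 8.69 in the own normal livers of high-Rian tumors, with a median of 6.73. In high-Rian tumors they reached 7.04.

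Other high-Rian tumors stood apart in 3 genes. Tumor 19 changed by 0.3333 in Lgr5 and by 1.3364 in the red cell gene Slc4a1, and tumor 7 by 4.7124 in the vessel gene Apln. Other low-Rian tumors stood apart in 5 genes. These were tumor 3 with 0.2454 in E2f1, tumor 5 with 2.8411 in the chaperone gene Hsph1, tumor 20 with -0.389 in Vwf, tumor 1 with 0.8893 in Reln and tumor 2 with 2.2625 in Cftr.

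Clusters without a gene symbol were not among the tested genes. Of 16010 such clusters, 17 were higher in high-Rian tumors at an adjusted p under 0.05 (limma, over the 17824 clusters with no symbol or several), by 1.29 to 4.89 (log2). In all 17 at least 5 high-Rian tumors were above every normal liver. The cluster numbers of 13 of the 17 fall between those of Mir370 and Mir379, in the stretch that was higher with Rian. No source used here gives their place in the genome. For any that belong to the locus the adjusted p is no test, since Rian chose the groups. Of clusters with several symbols the same fit called 4 of the 12 with a symbol of the locus and 0 of 1802 others.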

How the results depend on the processing

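The single call between the tumor groups, Mirlet7c-2, remained with median-centred arrays (adjusted p = 0.0053), quantile normalization (0.0142), the mean of a gene's clusters (0.0355) and, chosen after seeing the data, the leading title number as a random block (0.0452). The count was 0 with brighter genes only, which leave Mirlet7c-2 out, and with labelled sex as a covariate. So it was without arrays against the gender label, without tumor 9 and with the mean of tumors 22 and 26. It was also 0 with Rian as a continuous value, without the 4 tumors nearest the division and with array weights. The same held in labelled males, in labelled females, and in tumors with or without own normal liver. With the division at 10 or without a trend, both chosen after seeing the data, it was 0 too. Leaving out 1 tumor at a time gave 0 to 1 calls. The paired difference gave 0 to 1 calls when 1 pair was left out, and 0 in every other setting tried.

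The low-Rian count of 632 became 274 on median-centring. Without the pairs with an array against the gender label, a setting chosen after seeing the data, it became 2 and the high-Rian count 1470. Leaving out 1 pair at a time moved the counts from 28 to 1591 and from 1844 to 3947. Of the named genes that passed with all pairs, 60 of 60 lost the call in low-Rian pairs in at least 1 setting and 17 of 89 in high-Rian pairs.

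Differences of 9 genes, none of them called (0 genes), changed sign. Insig1 became -0.00835 with array weights, -0.26 in labelled females and -0.37 in tumors without own normal liver. In labelled males Pfkp became -0.0363, Cldn7 0.14 and Mpo 0.10, and in labelled females Cyp1a1 became -0.17, Masp1 -0.0845 and Slc4a1 -0.16. In tumors without own normal liver Masp1 became -0.0515, Fosl2 -0.0531, Cldn7 0.0279, Mpo 0.10 and Slc4a1 -0.16. With a looser reading of the titles the paired difference of Mx1 became -0.00941. For all of these the cause was not tested. Tumors and normal livers were paired by the animal in their titles, and the Rian groups hold different animals. The labels do not explain the leading number that some titles share.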
